A study of Mus musculus with 12 samples.

Results

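The immunoglobulin heavy chain variable (Ighv) genes encode the part of the antibody heavy chain that touches antigen, and they were taken here as every gene name that starts with Ighv. There were 141 such genes among 31272 gene names, spread over 15 V families, where the first number of a gene name gives its family. The data were 12 RNA-seq libraries of bone marrow cells labelled as hematopoietic stem cells (HSCs) of WT mice, in 4 groups of 3 libraries. The groups were Ctrl, IR (ionizing radiation), Ab_IR and L_IR, the last 2 being IR combined with a treatment that the labels call Ab or L without spelling either out. The protocol given for all samples, Ctrl included, speaks of collection 3 days after IR, so how the Ctrl mice were handled is not clear from the labels. No other allele or agent is given for any group, and neither the age of the mice nor the number pooled per library is given. Values were FPKM, fragment counts scaled by gene length and by the mapped fragments of the library. No label says that the libraries of a group came from separate mice, so each p-value measures only the spread between these libraries, which may be technical.

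A B cell builds its heavy chain gene by joining 1 V, 1 D and 1 J segment out of many on mouse chromosome 12, and transcribes the product together with a constant region gene. Plasma cells, the antibody-secreting end of that lineage, make this transcript in large amounts, and many of them reside in bone marrow. Many B cell clones can use the same V gene, so the share of a V gene describes its use in the RNA and does not identify clones. Stem cells have not rearranged the locus. The HSC gate of the study takes cells that lack lineage markers, Flt3 and CD34 and carry Sca-1 (gene Ly6a) and c-Kit (gene Kit). Its lineage markers include B220, which the study also uses for B cells, and CD3e, used for T cells.

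Of the 141 genes, 111 were annotated as V genes and 30 as V pseudogenes in GENCODE M21 (GRCm38), all on the minus strand of chromosome 12 within a span of 2428 kb. That annotation holds 183 Ighv names, and those with no row in the files were not analysed here. Family 1 was the largest with 72 genes, followed by family 5 with 14, family 8 with 12 and family 2 with 10. Families 13 and 15 had 1 gene each. There were 96 genes at 1 FPKM or above in all 12 libraries and 27 below 1 FPKM in all 12. Means over the 12 libraries were at least 100 FPKM for 46 genes and between 10 and 100 FPKM for 42. Pseudogenes held 0.0959% to 0.211% of the Ighv sum per library.

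The FPKM of all genes summed to between 344338 and 405123 per library, and counts of fragments were not analysed here, so the depth is unknown. Ctrl replicate 1 stood apart, with 44.1% of its rows at 0 against 24.7% to 27.3% in the other 11 libraries. Nppa, a heart hormone gene, was measured at 51.2 to 63.9 FPKM in the IR libraries and 2 of the Ctrl libraries (replicates 2 and 3), while the other 7 libraries had 0 to 0.26 FPKM. This division splits Ctrl alone, so what set it cannot be told apart from the difference of Ab_IR or L_IR from IR. Results are also given without Ctrl replicate 1. Of 12 stem cell and sort genes, Ly6a (25.9 to 61.5 FPKM), Kit (6.7 to 25.4 FPKM), Cd34 (3.66 to 20.6 FPKM) and Gata2 (4.89 to 17.2 FPKM) were the highest by their top values, and Procr, Slamf1, Mecom and Fgd5 stayed between 0 and 1.26 FPKM. The plasma cell gene Jchain, whose product joins IgA and IgM units, stood at 513 to 1287 FPKM. Of 12 B cell genes, Cd79a (11.5 to 23.3 FPKM) and Cd79b (7.55 to 20.1 FPKM) were the highest. The B cell surface gene Ms4a1 stood at 0.18 to 0.66 FPKM and Cr2 at 0 to 0.05 FPKM.

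Sequences of the genes that the results turn on are shown first. Each is a stretch of 300 bases of the coding part, leader and V exon, taken 5′ to 3′ from the longest GENCODE M21 transcript, and the coordinates are those of the gene on the minus strand of GRCm38 chromosome 12. Ighv13-2 (chr12:114357759-114358218) and Ighv12-3 (chr12:114366521-114366954) are neighbours among the members, at 785 and 794 kb from the D-proximal end. Their shares in Ab_IR and L_IR differed from IR in opposite directions. Capitals mark bases that differ from the nearest relative among the members, 61 in this stretch of Ighv13-2 against Ighv6-3 and 66 in this stretch of Ighv12-3 against Ighv3-2. These relatives were 80.9% and 79.4% identical over their alignments.
Ighv13-2: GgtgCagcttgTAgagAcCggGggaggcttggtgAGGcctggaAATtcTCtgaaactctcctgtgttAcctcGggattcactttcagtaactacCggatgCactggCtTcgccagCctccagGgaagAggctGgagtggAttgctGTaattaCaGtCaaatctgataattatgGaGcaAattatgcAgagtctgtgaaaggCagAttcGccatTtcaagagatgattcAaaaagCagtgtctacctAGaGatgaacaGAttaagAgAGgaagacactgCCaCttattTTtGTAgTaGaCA
Ighv12-3: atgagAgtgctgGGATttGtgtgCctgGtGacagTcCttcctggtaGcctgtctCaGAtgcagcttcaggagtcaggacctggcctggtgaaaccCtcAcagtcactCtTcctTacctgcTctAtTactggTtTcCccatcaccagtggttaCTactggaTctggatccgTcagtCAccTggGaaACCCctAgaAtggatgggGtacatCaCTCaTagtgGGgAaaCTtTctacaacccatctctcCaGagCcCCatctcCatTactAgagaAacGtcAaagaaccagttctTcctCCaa
The next sequences are pairs of near-identical genes whose mean shares differed between Ab_IR and IR in opposite directions, shown because so few bases tell their reads apart. Ighv10-1 (chr12:114479005-114479451) and Ighv10-3 (chr12:114523441-114523905) differ at 12 of 359 coding bases, of which 10 lie in the stretch shown, in capitals.
Ighv10-1: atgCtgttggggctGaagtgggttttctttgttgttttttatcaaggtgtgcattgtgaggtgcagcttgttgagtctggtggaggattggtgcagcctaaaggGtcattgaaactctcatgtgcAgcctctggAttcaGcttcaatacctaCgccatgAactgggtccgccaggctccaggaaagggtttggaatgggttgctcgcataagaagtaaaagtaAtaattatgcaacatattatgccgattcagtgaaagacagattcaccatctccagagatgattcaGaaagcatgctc
Ighv10-3: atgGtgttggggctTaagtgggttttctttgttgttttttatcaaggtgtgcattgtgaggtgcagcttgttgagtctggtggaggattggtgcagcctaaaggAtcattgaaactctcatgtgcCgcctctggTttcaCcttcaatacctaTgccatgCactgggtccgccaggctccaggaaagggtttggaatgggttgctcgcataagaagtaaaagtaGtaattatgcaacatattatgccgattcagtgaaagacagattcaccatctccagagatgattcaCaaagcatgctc
Ighv1-52 (chr12:115145487-115145919) and Ighv1-61 (chr12:115359140-115359572) differ at 5 of 351 coding bases, all in the stretch shown, in capitals.
Ighv1-52: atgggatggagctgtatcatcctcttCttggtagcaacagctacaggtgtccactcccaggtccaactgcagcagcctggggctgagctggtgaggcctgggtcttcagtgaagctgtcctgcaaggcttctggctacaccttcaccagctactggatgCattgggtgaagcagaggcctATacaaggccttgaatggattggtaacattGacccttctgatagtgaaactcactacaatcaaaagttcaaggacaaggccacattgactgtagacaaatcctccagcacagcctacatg
Ighv1-61: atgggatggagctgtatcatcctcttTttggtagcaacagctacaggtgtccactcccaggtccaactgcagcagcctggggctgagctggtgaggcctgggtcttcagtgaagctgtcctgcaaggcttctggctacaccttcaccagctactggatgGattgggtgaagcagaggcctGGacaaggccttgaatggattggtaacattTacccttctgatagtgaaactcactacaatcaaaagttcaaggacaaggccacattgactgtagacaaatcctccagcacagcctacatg

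The Ighv genes made up a larger part of the RNA in the IR and L_IR groups than in the Ctrl and Ab_IR groups. Their sum was 8865, 6924 and 7634 FPKM in the Ctrl libraries and 16026, 15308 and 15714 FPKM in the IR libraries. It was 9536, 10238 and 10186 FPKM in Ab_IR and 18551, 18402 and 18404 FPKM in L_IR. The 4 groups did not overlap, and the sum differed among them (exact permutation test of the F statistic over 369600 labelings, two-sided, p = 6.5e-05, the smallest these labelings give). The mean of IR was 2.01-fold that of Ctrl, a difference of 1.01 ± 0.105 (SE) on the log2 scale. The mean of Ab_IR was 0.637-fold that of IR (log2 difference -0.65 ± 0.0382) and the mean of L_IR was 1.18-fold that of IR (0.23 ± 0.0195). Ab_IR stood at 0.541-fold of L_IR (-0.89 ± 0.0332). Exact tests between pairs of groups of 3 cannot go below p = 0.1, and each of these 4 pairs gave that value. With labels permuted only within the 2 sides of the division by Nppa, which leaves the differences of Ab_IR and L_IR from IR untested, the p was 0.00143 (exact permutation test, 1400 labelings). In these bulk samples, fewer cells of a type and less RNA per cell cannot be told apart.

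**Figure D1:**
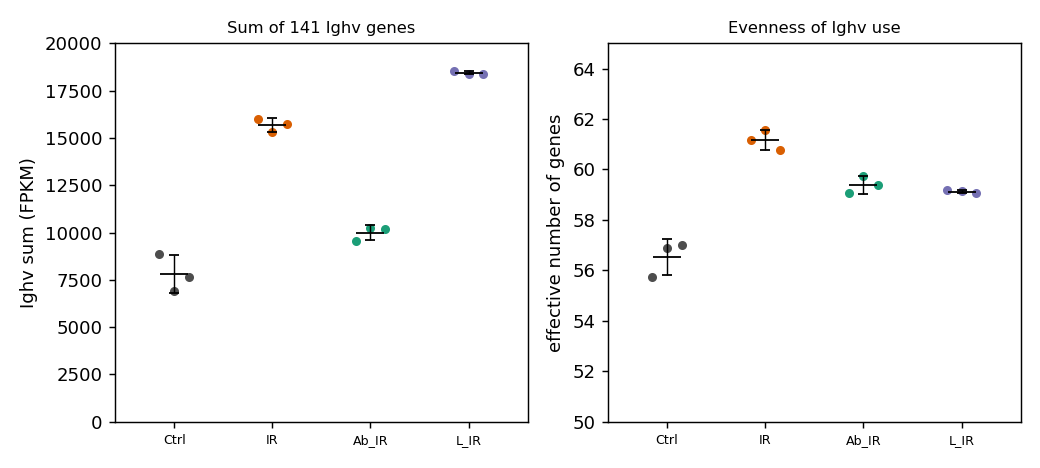
Left, the sum of the 141 Ighv genes in FPKM for each of the 12 libraries (points) by group, with the group mean (bar) and SD (whiskers); the axis starts at 0. Right, the effective number of Ighv genes for the same libraries, on an axis from 50 to 65. The IR and L_IR libraries lie at 15308 FPKM or above and the Ctrl and Ab_IR libraries at 10238 FPKM or below, while the effective number is lowest in Ctrl and highest in IR.

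The sum was spread over many genes in every library. Ighv3-6 was the highest gene in all 12 libraries, with 8.93% ± 0.419 (SD, n = 3) of the sum in Ctrl and 7.77% ± 0.0805 in IR, against 7.06% ± 0.447 in Ab_IR and 7.12% ± 0.221 in L_IR. The 10 highest genes of a library held 34.8% to 39.1% of its sum. The effective number of genes, the exponential of the Shannon entropy of the shares, was 56.5 ± 0.713 in Ctrl and 61.2 ± 0.392 in IR, against 59.4 ± 0.347 in Ab_IR and 59.1 ± 0.0615 in L_IR. It differed among the groups (exact permutation test, p = 0.00026, 369600 labelings), with Ctrl lowest and IR highest. The Ab_IR and L_IR means differed by 0.267.

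Family 1, the largest, held 50.4% ± 2.79 in Ctrl and 51% ± 0.0526 in IR, against 50.7% ± 0.511 in Ab_IR and 50.9% ± 0.246 in L_IR. The exact permutation test over all 12 libraries did not pass for it (adjusted p = 0.99), and the difference of IR from Ctrl was 0.523 ± 1.61 (SE) percentage points. That value rests on Ctrl replicate 1, at 53.6% against 48.6% and 49% in the other Ctrl libraries, and without it the difference was 2.13 ± 0.221 percentage points. Of the 14 families with a mean share of at least 0.1%, 9 differed among the groups after adjustment over the 14, namely families 3, 4, 5, 6, 7, 8, 11, 12 and 13. Families 1, 2, 9, 10 and 14 did not pass. On centred log-ratios of the family sums in place of percent shares, family 5 did not pass (exact test, adjusted p = 0.669), while families 9 (exact test, adjusted p = 0.0122) and 10 (exact test, adjusted p = 0.0042) did. For scale, 62.2% of all genes at 1 FPKM or above in at least 3 libraries passed the same test on their percent of the library's FPKM sum. So did 94.3% of the 106 Ighv genes among them. The count of 9 of 14 families was near the share of all genes. Without Ctrl replicate 1, which was an extreme of Ctrl in 14 of the 15 families, 13 of 14 families passed, all but family 2, and family 1 was among them at an exact adjusted p of 0.0129. The same 13 passed with labels permuted within the 2 sides of the division by Nppa, which does not test Ab_IR or L_IR against IR. Families 5 and 8 missed the threshold when any IR, Ab_IR or L_IR library was left out (adjusted p between 0.0572 and 0.064), each time leaving 7.

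**Figure D2:**
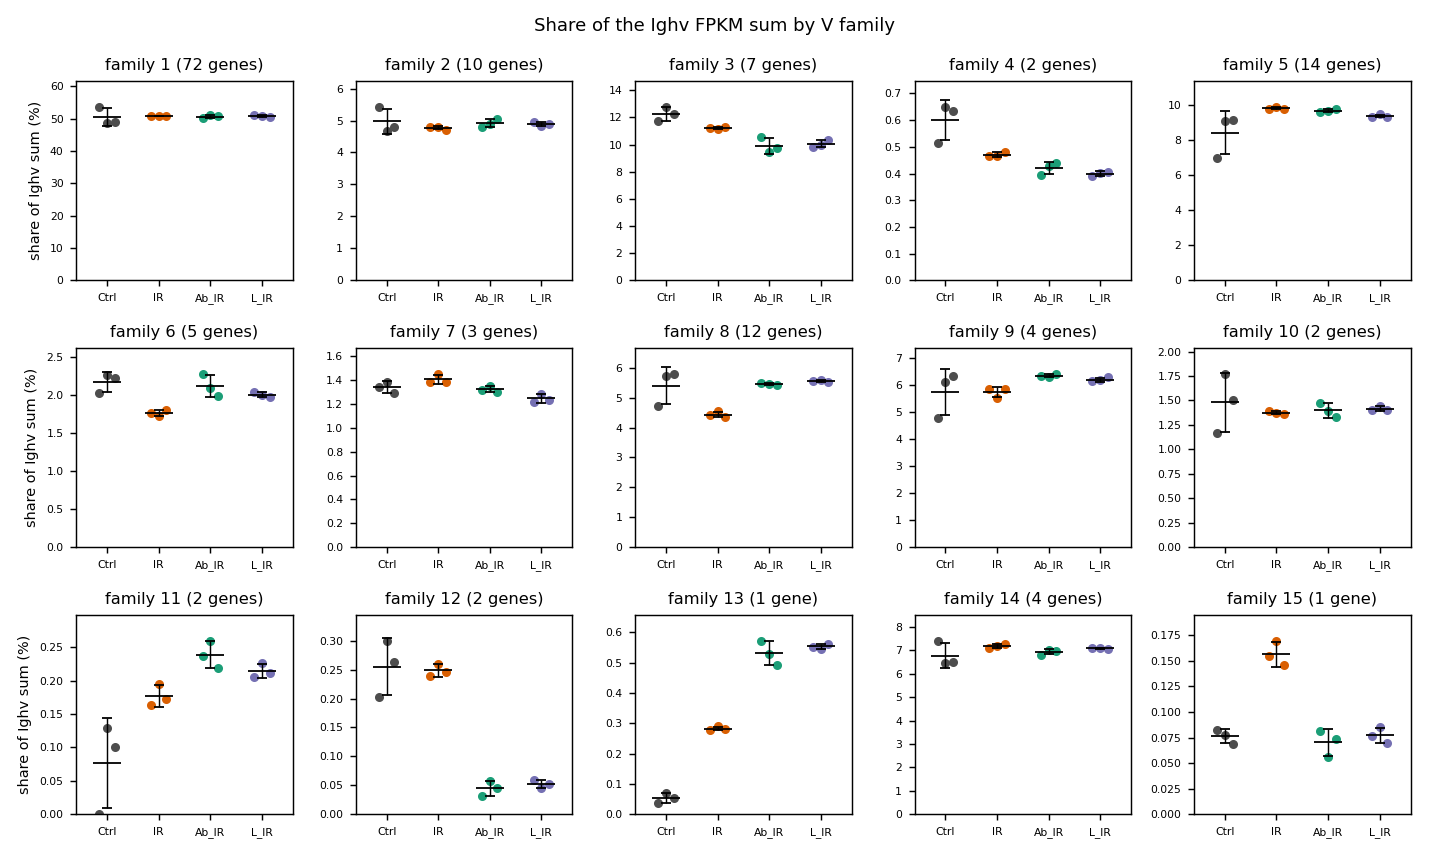
Share of the Ighv FPKM sum (percent, vertical axes from 0 and scaled per panel) held by each of the 15 V families in each of the 12 libraries (points), by group, with mean (bar) and SD (whiskers). Family 1 lies near 50% in all groups, family 13 has means from 0.0531% in Ctrl to 0.554% in L_IR, and family 12 has means of 0.249% in IR and 0.0445% in Ab_IR.

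The widest relative differences were in small families. Family 13 consists of Ighv13-2 alone and held 0.0362%, 0.0709% and 0.0523% of the sum in the Ctrl libraries. It held 0.279%, 0.29% and 0.28% in IR, 0.572%, 0.53% and 0.492% in Ab_IR and 0.553%, 0.546% and 0.563% in L_IR. Ab_IR and L_IR overlapped each other and lay above IR, which lay above Ctrl (exact test, adjusted p = 0.00114). The IR mean was 5.32-fold the Ctrl mean, and the Ab_IR and L_IR means were 1.88-fold and 1.96-fold the IR mean.

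Family 12, which is almost wholly Ighv12-3, went the other way in Ab_IR and L_IR against IR. It held 0.202%, 0.3% and 0.262% in Ctrl and 0.239%, 0.26% and 0.246% in IR, which overlapped. It held 0.0308%, 0.0574% and 0.0454% in Ab_IR and 0.0586%, 0.0458% and 0.0519% in L_IR. The means of Ab_IR and L_IR were 0.179-fold and 0.21-fold the mean of IR (exact test across the 4 groups, adjusted p = 0.00989). Ighv12-3 and Ighv11-2 are known as V genes of B-1 cell antibodies that bind phosphatidylcholine. Family 11, nearly all from Ighv11-2, did not follow family 12. Ctrl replicate 1 had a listed value of 0 and the other Ctrl libraries had 0.129% and 0.1%, against 0.163% to 0.196% in IR, 0.219% to 0.26% in Ab_IR and 0.206% to 0.227% in L_IR (exact test, adjusted p = 0.000909).

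Larger families differed by less. Family 3, led by Ighv3-6, held 12.2% ± 0.531 in Ctrl and 11.2% ± 0.0674 in IR, against 9.9% ± 0.57 in Ab_IR and 10.1% ± 0.272 in L_IR (exact test, adjusted p = 0.00127). Family 8, led by Ighv8-12, was lower in IR at 4.44% ± 0.099 than in Ctrl at 5.4% ± 0.606, Ab_IR at 5.45% ± 0.0348 or L_IR at 5.55% ± 0.0296 (exact test, adjusted p = 0.0336). Family 6, led by Ighv6-3, was also lowest in IR, at 1.76% ± 0.0411 against 2% to 2.17% in the other groups' means (exact test, adjusted p = 0.00989). Family 5 held 6.99%, 9.06% and 9.16% in Ctrl and 9.78%, 9.88% and 9.79% in IR, so its Ctrl mean rests on replicate 1. Family 4, nearly all Ighv4-1, had 0.6% ± 0.0746 in Ctrl and 0.471% ± 0.00873 in IR, against 0.421% ± 0.0231 in Ab_IR and 0.4% ± 0.00789 in L_IR (exact test, adjusted p = 0.000909), and the last 2 overlapped. Family 15, Ighv15-2 alone, was under the 0.1% minimum and untested. It held 0.146% to 0.17% in IR and 0.0561% to 0.0848% in the other 9 libraries.

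Between pairs of groups, the libraries of IR and Ctrl did not overlap for 7 of the 14 families, those of Ab_IR and IR for 11, those of L_IR and IR for 12 and those of Ab_IR and L_IR for 5. The background, taken over the FPKM of all genes tested, was 58.1%, 73.0%, 71.2% and 51.9% of genes without overlap in the same order. The counts for IR and Ctrl and for Ab_IR and L_IR were below that background. The 5 families without overlap between Ab_IR and L_IR were 5, 7, 8, 9 and 14, and their mean shares differed by at most 0.299 percentage points, in family 5. Without Ctrl replicate 1 the first count was 12, and without Ab_IR replicate 1 the last was 9. With 3 libraries a group, no overlap corresponds to the smallest exact p of 0.1.

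Ab_IR and L_IR had the most alike shares of single genes among the pairs of groups. Over the 57 genes with a mean share of at least 0.5%, which together held 91.5% of the sum, the median absolute log2 ratio of shares between an Ab_IR and an L_IR library was 0.0615 to 0.0722 over the 9 pairs of libraries. Between libraries of 1 group it was 0.0336 to 0.0433 in IR, 0.0483 to 0.0535 in Ab_IR and 0.0306 to 0.0395 in L_IR. Between IR and Ab_IR libraries it was 0.294 to 0.365 and between IR and L_IR libraries 0.277 to 0.331. Pearson's r of log2 shares across these genes, which share the library and the normalization and are not independent replicates, was 0.993 to 0.995 for Ab_IR with L_IR and 0.841 to 0.853 for Ctrl with IR. No gene of the 57 differed by more than 0.21 on the log2 scale between the mean shares of Ab_IR and L_IR, and Ighv1-19 was the one at that limit. Differences past 0.5 were found in 12 genes between IR and Ctrl, 17 between Ab_IR and IR and 18 between L_IR and IR. Within Ctrl the median ratio reached 0.23 for pairs that included replicate 1 and was 0.0663 between replicates 2 and 3.

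**Figure D3:**
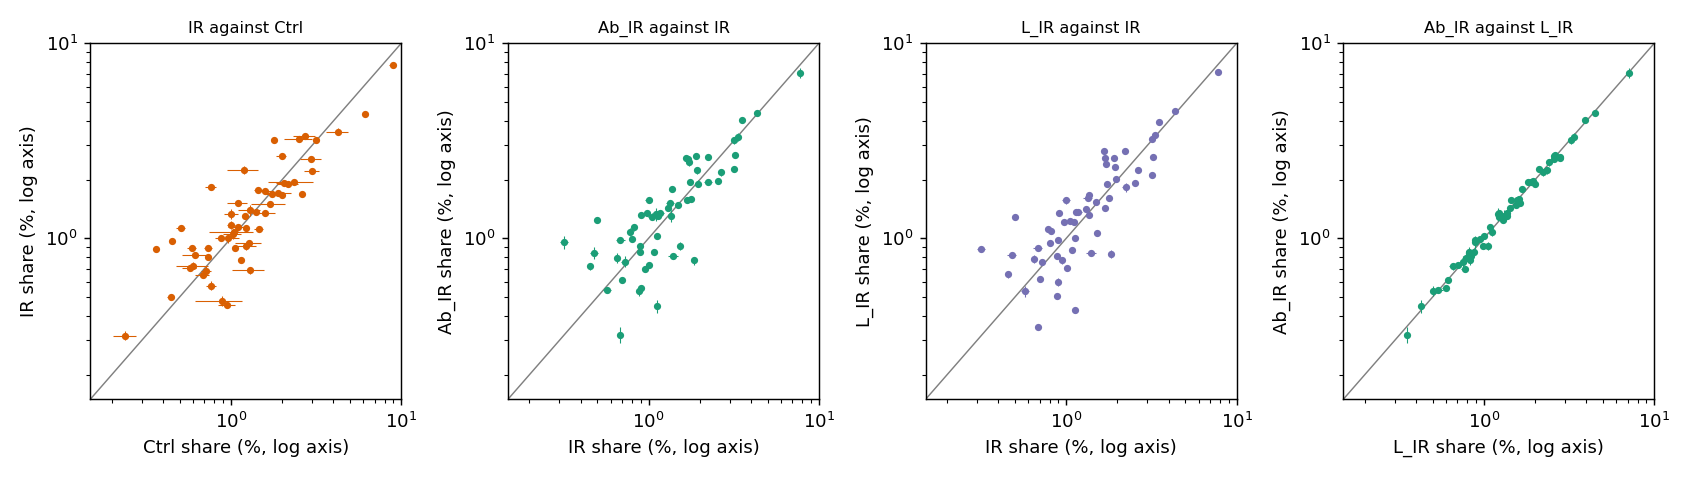
Mean share of the Ighv sum for the 57 genes with a mean share of at least 0.5%, in percent on log axes, for 4 pairs of groups (1 panel each); whiskers are SD over 3 libraries and the grey line marks equal shares. The points for Ab_IR against L_IR lie along the line, within 0.21 on the log2 scale, and those of the other panels scatter around it.

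Across the 4 groups, 52 of these 57 genes had shares that differed (exact permutation test, adjusted over the 57), against the 62.2% of all genes given above. Leaving out single libraries gave 46 to 52. The 5 that did not pass were Ighv1-53, Ighv1-55, Ighv9-3, Ighv14-1 and Ighv14-2. Ighv14-2, whose mean level was the fifth highest, held 3.18% ± 0.0329 in Ctrl and 3.19% ± 0.0303 in IR, against 3.19% ± 0.135 in Ab_IR and 3.24% ± 0.0443 in L_IR.

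Irradiation was compared with control first. Of 103 Ighv genes tested, 55 were higher in IR and 3 lower by limma on log2(FPKM + 1), where a call needed an adjusted p under 0.05 and a log2 fold change past 1 in size. Of all genes tested, 3.03% were called as higher and 4.57% as lower, 7.60% together. By adjusted p alone, 83 Ighv genes were higher and 6 lower, against 17.5% and 25.5% of all genes. The median log2 fold change was 1.07 for the Ighv genes and -0.05 for all genes. In family 1, 29 of 52 genes rose, in family 5 it was 6 of 9, and in family 14 it was 4 of 4. It was 1 of 5 in family 8, 1 of 3 in family 7, 0 of 3 in family 6 and 0 of 1 in families 4 and 12. Without Ctrl replicate 1 the count was 67. Of the 103 tested, 3 were under 1 FPKM in all libraries of one of the groups, and 1 of these was called.

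Ighv13-2 rose most among the genes named by rule, from 3.21, 4.91 and 3.99 FPKM in Ctrl to 44.7, 44.4 and 43.9 FPKM in IR (log2 fold change 3.18 ± 0.124 SE, limma adjusted p = 1.95e-05). Ighv5-2, the third member from the D segments, rose from 3.8, 5.96 and 6.77 FPKM to 53, 51.2 and 56.4 FPKM (3.09 ± 0.177, limma adjusted p = 6.62e-05). Ighv3-5 rose from 5.31, 5.24 and 6.38 FPKM to 46.5, 41.4 and 46.3 FPKM (2.79 ± 0.0915, limma adjusted p = 1.12e-05). All 3 were at most 6.77 FPKM in every Ctrl library. Ighv1-84 (2.62 ± 0.127) and Ighv11-2 (2.67 ± 0.84) rose as well. Ighv11-2 stood at 0, 8.74 and 7.26 FPKM in Ctrl and 24.9, 28.9 and 26 FPKM in IR. Its fold change thus rests in part on Ctrl replicate 1, which was listed at 0. The genes that fell were Ighv7-4, from 34, 29.8 and 29.5 FPKM to 6.21, 6.5 and 5.4 FPKM (-2.19 ± 0.0911, limma adjusted p = 2.6e-05), Ighv3-4, from 47.3, 32.6 and 37.1 FPKM to 13, 11.8 and 10.2 FPKM (-1.65 ± 0.152, limma adjusted p = 0.000409), and Ighv6-7, at 3.77, 1.06 and 1.71 FPKM in Ctrl and listed at 0 in all IR libraries. Ighv6-7 entered the test only through its Ctrl values, since a gene needed 1 FPKM in 3 of the fitted libraries. Given that entry, only a fall could be called. With no filter on low values the number called as lower was also 3.

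Among the abundant genes the rise was uneven. Ighv3-6 was at 758, 649 and 676 FPKM in Ctrl and 1250, 1175 and 1229 FPKM in IR, a log2 difference of 0.81 ± 0.0881 that passed the adjusted p but not the fold threshold. Ighv1-81 rose from 160, 122 and 139 FPKM to 503, 481 and 515 FPKM (1.84 ± 0.108). Ighv1-12 rose from 61.7, 54.5 and 61 FPKM to 293, 282 and 292 FPKM, and its share went from 0.76% ± 0.0557 to 1.84% ± 0.0162. Ighv1-5 was at 73.6, 68.3 and 79.6 FPKM in Ctrl and 71.9, 69.2 and 72.6 FPKM in IR, so that its share was 0.953% ± 0.11 in Ctrl and 0.454% ± 0.00703 in IR. Ighv1-12 and Ighv1-5 were chosen after their values were seen.

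Ab_IR was then compared with IR. Of 102 Ighv genes tested, 29 fell and 0 rose by the same limma rule, against 2.46% of all genes called as lower and 5.11% as higher, 7.57% together. Of the 102 tested, 3 were under 1 FPKM in all libraries of one of the groups. The 2 of these that were called entered the test only through IR, where they were higher. By adjusted p alone 85 were lower and 5 higher, against 29.4% and 39.4% of all genes, and at an unadjusted p under 0.05 the counts were 87 and 5. The median log2 fold change was -0.66 for the Ighv genes and 0.06 for all genes. The 5 higher genes were Ighv1-54, Ighv2-9, Ighv3-4, Ighv10-1 and Ighv13-2.

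Ighv3-5 fell most, from 46.5, 41.4 and 46.3 FPKM in IR to 4.58, 3.97 and 4.81 FPKM in Ab_IR (-3.07 ± 0.0726, limma adjusted p = 1.3e-07), which was near its Ctrl level. Ighv12-3 fell from 38.2, 39.9 and 38.7 FPKM to 2.94, 5.88 and 4.58 FPKM (-2.91 ± 0.179, limma adjusted p = 8.56e-06), below its Ctrl level of 17.9, 20.8 and 20 FPKM. Ighv1-37 (-2.41 ± 0.134), Ighv5-2 (-2.11 ± 0.0648) and Ighv1-7 (-1.96 ± 0.0725) also fell. Ighv1-7 went from 178, 173 and 180 FPKM to 40.1, 45 and 49.7 FPKM, the Ctrl libraries being at 46.9, 32.8 and 39.7 FPKM.

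L_IR differed from IR in fewer genes past the fold threshold. Of 105 Ighv genes tested, 5 rose and 7 fell, against 6.22% of all genes called in either direction, 4.09% as higher and 2.13% as lower. By adjusted p alone, 53 were higher and 27 lower, against 40.8% and 26.0% of all genes. The median log2 fold change was 0.13 for the Ighv genes and 0.07 for all genes. A fit of all 12 libraries with the division by Nppa as a term, added after seeing the data, called 10 as higher and 16 as lower. In that fit the term rests on Ctrl replicate 1, the library that stood apart, against the other Ctrl libraries.

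The genes that rose were Ighv3-4, Ighv1-54, Ighv2-9, Ighv13-2 and Ighv10-1. Ighv1-54 went from 51.1, 45.9 and 52.4 FPKM in IR to 157, 166 and 167 FPKM in L_IR (1.69 ± 0.0523, limma adjusted p = 5.98e-07), with Ab_IR at 83.7, 99.5 and 105 FPKM and Ctrl at 24.1, 17.2 and 15.3 FPKM. Ighv2-9 went from 80.5, 76.4 and 78.7 FPKM to 245, 230 and 240 FPKM (1.59 ± 0.0321, limma adjusted p = 1.03e-07), with Ab_IR at 117, 127 and 129 FPKM and Ctrl at 40.9, 31.1 and 32 FPKM. For both genes all 4 groups stood apart, in the order Ctrl, IR, Ab_IR and L_IR. As shares of the sum, Ighv2-9 held 0.443% ± 0.022 in Ctrl and 0.501% ± 0.00171 in IR, against 1.24% ± 0.0211 in Ab_IR and 1.29% ± 0.0365 in L_IR.

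The named genes that fell in L_IR were Ighv12-3 (-1.93 ± 0.083, limma adjusted p = 2.33e-06), Ighv3-5 (-1.82 ± 0.0891), Ighv1-37 (-1.61 ± 0.0778), Ighv5-2 (-1.48 ± 0.0547) and Ighv1-7 (-1.15 ± 0.0352). The same 5 genes were named for their fall in Ab_IR. Ighv8-4 had the lowest log2 fold change of all members in L_IR (-2.24 ± 0.163, limma adjusted p = 2.6e-05) and also fell in Ab_IR (-2.97 ± 0.14), from 19.1, 22 and 20.3 FPKM in IR to 3.17, 4.95 and 2.74 FPKM in L_IR and 1.32, 2.44 and 1.56 FPKM in Ab_IR. Its mean of 9.7 FPKM lay under the minimum for naming, and it is given after its values were seen. The share of its family 8 was higher in both groups than in IR. Both comparisons use the same IR libraries, so their likeness is not independent. Ighv12-3 stood at 10.9, 8.28 and 9.55 FPKM in L_IR, and Ighv5-2 at 17.1, 19.1 and 19.3 FPKM.

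**Figure D4:**
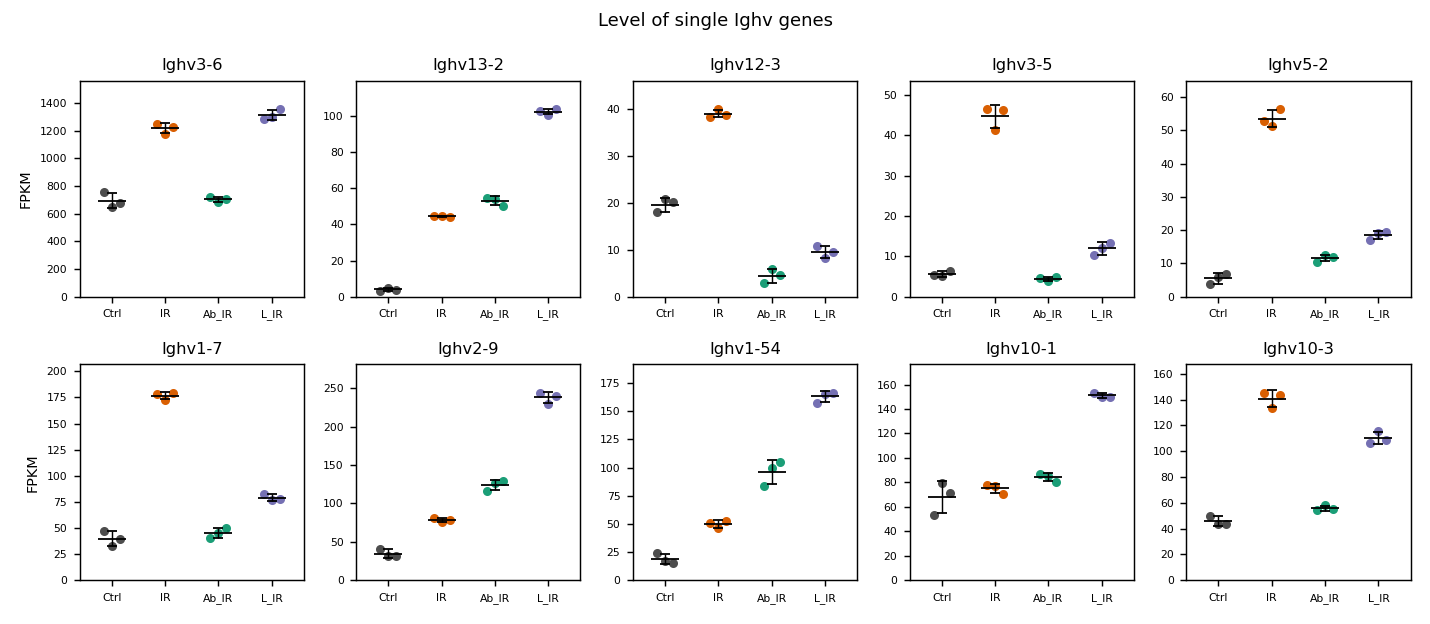
Level in FPKM (vertical axes from 0 and scaled per panel) of 10 Ighv genes in each of the 12 libraries (points), by group, with mean (bar) and SD (whiskers). Ighv3-5, Ighv5-2 and Ighv1-7 are highest in IR, Ighv12-3 is lowest in Ab_IR and L_IR, and Ighv13-2, Ighv2-9 and Ighv1-54 are highest in L_IR.

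Ab_IR was compared with L_IR directly, both groups being irradiated. Of 102 Ighv genes tested, 6 fell and 0 rose by the limma rule with the fold threshold, against 0.238% of all genes called as lower and 0.295% as higher, 0.533% together. By adjusted p alone, 96 were lower in Ab_IR and 1 higher, against 19.8% and 18.2% of all genes, and at an unadjusted p under 0.05 the counts were 100 and 1. The median log2 fold change was -0.85 for the Ighv genes and 0.01 for all genes. The family medians lay between -0.71 and -0.98 in all 15 families, some with a single gene tested. The genes called were Ighv3-5 (-1.25 ± 0.0962), Ighv1-56 (-1.13 ± 0.14), Ighv1-19 (-1.09 ± 0.0422), Ighv1-62-2 (-1.03 ± 0.0663), Ighv1-75 (-1.02 ± 0.0533) and Ighv1-61, just past the threshold. The count moved with the scaling, and 50 were called when the values were scaled to the FPKM sum without immunoglobulin genes, an alternative added after seeing the data. Without Ab_IR replicate 2, Ab_IR replicate 3 or L_IR replicate 2 it was 11. The single gene that was higher, Ighv1-41, stood at means of 2.39 and 1.41 FPKM.

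Many members are close relatives. Among the 140 with an aligned relative, the nearest relative by local alignment of the transcripts had a median identity of 94.7%, 69 genes had a relative at 95% or more and 14 at 98% or more. How the authors' counting divided reads that match several members is not given in the sources used here, so levels of such genes are uncertain. There were 15 pairs of genes that were each other's nearest relative at 95% or more and at means of at least 10 FPKM. Within them, the mean shares of the 2 genes differed in opposite directions in 8 pairs between IR and Ctrl, 10 between Ab_IR and IR, 9 between L_IR and IR and 6 between Ab_IR and L_IR. For scale, 30, 31, 34 and 29 of the 57 genes above had the higher share in the first group, in the same order. Pairs drawn from any of those genes would thus often differ in opposite directions. The 15 pairs were chosen after their values were seen.

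Ighv10-1 and Ighv10-3, whose sequences are given above, are 96.9% identical and make up family 10. Ighv10-1 made up 51.6% to 64.6% of the pair in Ctrl, 33% to 36.6% in IR, 59.4% to 61.6% in Ab_IR and 56.5% to 59% in L_IR. IR lay below all other groups, and the share of the family as a whole did not pass the test among groups. Ighv10-1 stood at 53.5, 79.2 and 71 FPKM in Ctrl, 77.4, 77.2 and 70.5 FPKM in IR and 153, 150 and 150 FPKM in L_IR. Ighv10-3 stood at 50.1, 43.4 and 43.8 FPKM in Ctrl, 145, 134 and 143 FPKM in IR and 107, 115 and 109 FPKM in L_IR.

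Ighv1-52 and Ighv1-61 are 98.6% identical. Ighv1-52 made up 55% to 65% of this pair in Ctrl, 70.3% to 71.3% in IR, 88.1% to 89.9% in Ab_IR and 88.7% to 89.1% in L_IR. Ab_IR and L_IR overlapped and lay above IR, which lay above Ctrl. Ighv1-61 stood at 113, 106 and 103 FPKM in IR and 33.3, 33.1 and 29.6 FPKM in Ab_IR (-1.72 ± 0.0588, limma adjusted p = 5.93e-07). Ighv1-52 stood at 268, 257 and 255 FPKM in IR and 248, 266 and 265 FPKM in Ab_IR, where the groups overlapped. In the pair Ighv9-1 and Ighv9-2, 95.7% identical, Ighv9-1 made up 67.7% to 75% in Ctrl, 52% to 54% in IR, 73.2% to 76% in Ab_IR and 74.5% to 76.4% in L_IR. Ighv1-62-3 and Ighv1-72, 99.2% identical, had a like division throughout, with Ighv1-62-3 at 8.35% to 12% of the pair in all 12 libraries.

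Position on the chromosome was a property that the choice of genes did not use. V genes at the 3′ end of the locus lie nearest to the D segments, and the span was divided into 3 stretches of equal length. The D-proximal stretch holds all genes of families 2, 3, 4, 5, 7, 9, 11, 12, 13 and 14, while family 1 lies in the middle and distal stretches. The D-proximal stretch gave 40.4% ± 1.79 of the sum in Ctrl and 41.3% ± 0.13 in IR, against 40.3% ± 0.347 in Ab_IR and 40.1% ± 0.293 in L_IR (exact permutation test, adjusted p = 0.41). The middle stretch gave 30.4% ± 0.725, 29.4% ± 0.228, 28.8% ± 0.245 and 29.3% ± 0.205 (exact test, adjusted p = 0.0037). The distal stretch gave 29.2% ± 1.18, 29.3% ± 0.173, 30.9% ± 0.19 and 30.7% ± 0.146 (exact test, adjusted p = 0.0458). The number of stretches that passed was 3 without Ctrl replicate 1, 0 when IR replicate 1 or 2, Ab_IR replicate 1 or 3 or any L_IR library was left out, and 1 without any other single library. Genes with higher and lower shares lay side by side along the span, as Ighv13-2 and Ighv12-3 did.

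**Figure D5:**
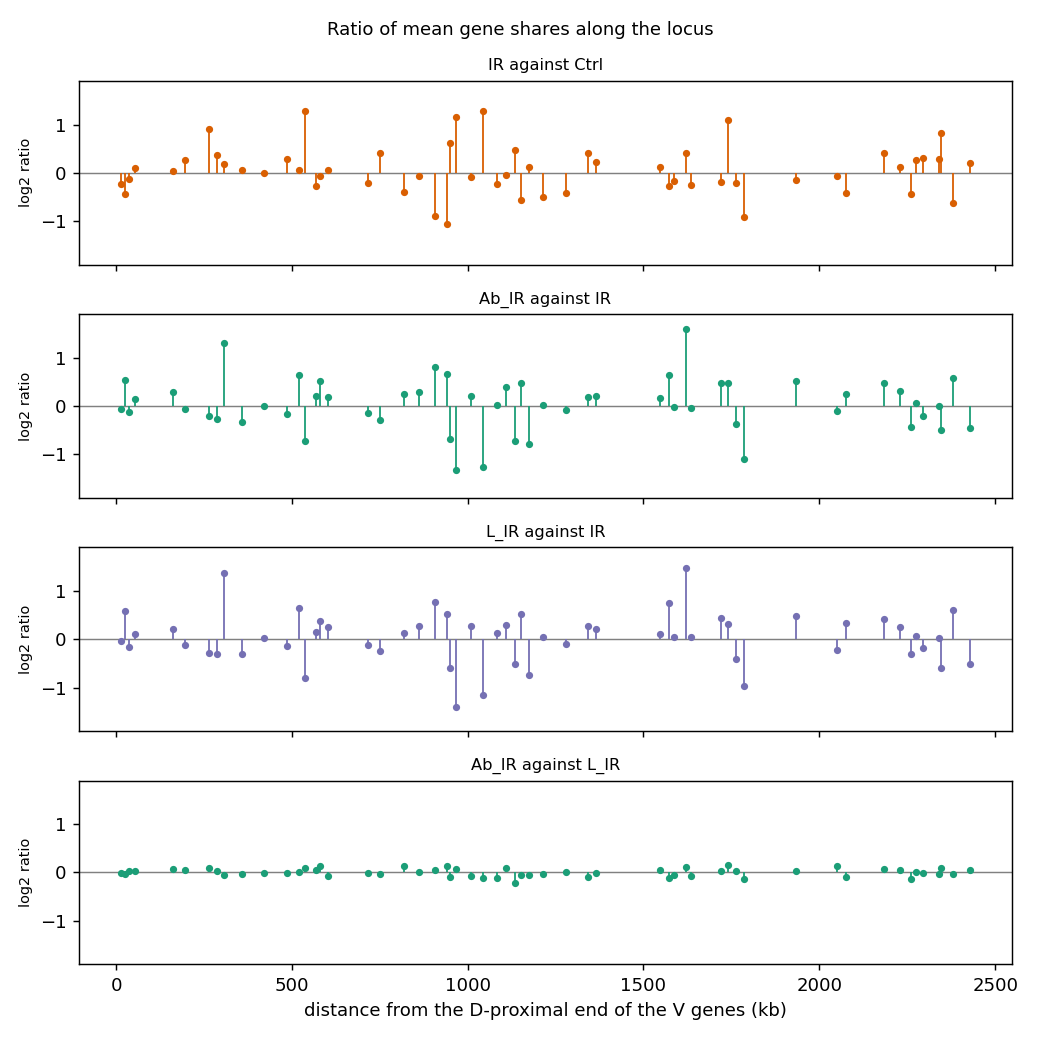
Log2 ratio of mean shares for the 57 genes with a mean share of at least 0.5% (vertical axis), against distance from the D-proximal end of the V genes in kb (horizontal axis), 1 panel for each of 4 pairs of groups. Ratios above and below 0 alternate along the span in the first 3 panels, and those for Ab_IR against L_IR stay within 0.21.

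Other genes of the antibody-secreting lineage were set beside the Ighv values. The 8 heavy constant genes summed to 3848 to 4374 FPKM in Ctrl, 6777 to 7310 in IR, 6099 to 6523 in Ab_IR and 9420 to 9838 in L_IR. The ratio of the Ighv sum to that sum was 1.92 ± 0.115 in Ctrl and 2.24 ± 0.0376 in IR, against 1.58 ± 0.0794 in Ab_IR and 1.92 ± 0.0417 in L_IR, and it differed among the groups (exact permutation test, p = 0.000584). The ratio was thus lowest in Ab_IR, whereas the 4 light constant genes summed to 17124 to 17695 FPKM in Ab_IR, within the IR range of 16823 to 18069 FPKM. Those genes summed to 9613 to 12670 FPKM in Ctrl and 24623 to 25470 FPKM in L_IR. Between Ab_IR and IR, none of the 7 heavy constant genes tested passed the fold threshold. By adjusted p alone 4 were lower and 1 higher, against 29.4% and 39.4% of all genes.

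The 12 plasma cell genes summed to 741 to 852 FPKM in Ctrl, 1237 to 1266 in IR, 1215 to 1299 in Ab_IR and 1627 to 1651 in L_IR. Between IR and Ctrl, 4 of 12 rose past the fold threshold, against 3.03% of all genes. Between Ab_IR and IR, 2 of 12 fell past it, against 2.46%. By adjusted p alone 8 were lower and 3 higher there, against 29.4% and 39.4%. Between L_IR and IR, 1 rose and 1 fell past it, against 4.09% and 2.13%. By adjusted p alone 7 were higher and 3 lower, against 40.8% and 26.0%, so the 3 lower were near the share of all genes. Xbp1, a regulator of secretory capacity and one of the genes lower in L_IR than in IR, stood at 69.1, 83.6 and 78.6 FPKM in Ctrl, 201, 201 and 199 FPKM in IR, 100, 96 and 91.1 FPKM in Ab_IR and 108, 108 and 107 FPKM in L_IR. The 12 B cell genes summed to 28.7 to 34.4 FPKM in Ctrl and 24.9 to 25.7 in IR. In Ab_IR the sum was 41.8 to 42.2 FPKM and in L_IR 46.7 to 48 FPKM. Most of each sum came from Cd79a (11.5 to 23.3 FPKM) and Cd79b (7.55 to 20.1 FPKM), and 8 of the 12 were under 1 FPKM in all libraries. The 8 genes of V(D)J recombination and precursor B cells summed to 5.14 to 21.2 FPKM. Between IR and Ctrl, 3 of them were tested, and 1 was called as lower and 1 as higher, against 4.57% and 3.03% of all genes. Dntt was the lower one, having entered the test only through Ctrl. Vpreb3 was the higher one, from 0, 1.64 and 1.61 FPKM in Ctrl to 3.79, 3.19 and 3.74 FPKM in IR. Vpreb1 and Igll1 were under the minimum for testing, at 0.22 to 1.23 and 0.4 to 1.21 FPKM in Ctrl. They stood at 0.11 to 0.26 and 0.05 to 0.09 FPKM in IR. Between Ab_IR and IR, 3 of 5 tested (Dntt, Vpreb1 and Igll1) were called as higher, between L_IR and IR 1 of 3 (Dntt), and between Ab_IR and L_IR 1 of 5 (Dntt). Of all genes, 5.11%, 4.09% and 0.295% were called as higher in the same order. Dntt, Vpreb1 and Igll1 were under 1 FPKM in all IR libraries, so against IR they entered the test only through the other group. Rag1 and Rag2 stood at 0 to 0.37 FPKM. Dntt, which adds bases at V(D)J junctions, stood at 12.4 to 14.3 FPKM in Ctrl, 0.26 to 0.35 in IR, 12.3 to 13 in Ab_IR and 4.2 to 4.61 in L_IR.

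Genes of other cell types moved with the groups too. The 12 stem cell and sort genes summed to 111 to 118 FPKM in Ctrl and 75 to 82.4 in IR. They summed to 102 to 110 FPKM in Ab_IR and 106 to 107 in L_IR. Of the 8 tested, 5 fell between IR and Ctrl, while 5 of 8 rose between Ab_IR and IR and 4 of 8 between L_IR and IR. This list mixes genes that the HSC gate requires (Kit, Ly6a) with genes it excludes (Cd34, Flt3). Cd34 stood at 19 to 20.6 FPKM in Ctrl and 3.66 to 3.91 in IR, and Flt3 at 9.13 to 12.1 and 0.96 to 1.22. Kit was also lower in IR, at 6.7 to 7 FPKM against 21.3 to 25.4 in Ctrl. Ly6a was higher in IR, at 53.7 to 61.5 FPKM against 25.9 to 41.1 in Ctrl. The 4 erythroid genes summed to 1719 to 2240 FPKM in Ctrl, 321 to 327 in IR, 1953 to 2127 in Ab_IR and 973 to 1007 in L_IR, and all 4 fell between IR and Ctrl and rose both between Ab_IR and IR and between L_IR and IR. The 6 neutrophil and monocyte genes summed to 6453 to 7314 FPKM in Ctrl, 8088 to 8170 in IR, 6985 to 7569.5 in Ab_IR and 5754 to 5977 in L_IR, and 3 of the 6 fell between L_IR and IR. The 6 T cell genes summed to 14.7 to 15.3 FPKM in Ctrl, 9.16 to 10.1 in IR, 15.8 to 17.6 in Ab_IR and 24 to 24.5 in L_IR, and 3 of the 6 rose between L_IR and IR. Of all genes, 4.57% were called as lower between IR and Ctrl, and 5.11% as higher between Ab_IR and IR. Between L_IR and IR, 4.09% were called as higher and 2.13% as lower. FPKM are relative to all mapped fragments of a library. The part that the listed genes and their cells had in the Ighv differences was not tested.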

How the data were processed

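RNA from sorted bone marrow cells of 12 samples was made into stranded poly(A) libraries and sequenced by the authors. The deposited values were FPKM per gene with 2 decimals, 1 table per library. The unit is not named in the tables and was inferred from the values, which sum to different totals per library. The study's methods name fastp and RSEM with DESeq2, and the submitters' processing notes name fastp, HISAT2, StringTie and GRCm38/mm10. The methods give a version for RSEM. Versions of the other tools, the annotation and how reads matching several Ighv genes were divided are not given in the sources used here, and which of these tools made the deposited values is not settled by them. Fragment counts were not analysed here, so library depth is unknown and counting error could not be estimated.

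Rows of the same name were summed for shares (31340 rows, 31272 names). The share of a gene or family is its percent of the Ighv FPKM sum of the library. Shares of the families with a mean of at least 0.1% and of the genes with a mean of at least 0.5%, the Ighv sum and the effective number of genes were compared across the 4 groups by the exact permutation test of the F statistic over all 369600 labelings, two-sided, with Benjamini-Hochberg adjustment within each kind of share. The test over all genes used each gene's percent of the FPKM sum, at 1 FPKM or above in at least 3 libraries.

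Each pair of groups was fitted by limma 3.58.1 (R 4.3.3, with trend) on log2(FPKM + 1) over all genes at 1 FPKM or above in at least 3 of the fitted libraries, with Benjamini-Hochberg adjustment over all of them. Fold changes are on this scale, which understates those of low genes. Calls needed an adjusted p under 0.05 and a log2 fold change past 1 in size. The fits were tested on simulated data. Shares and figures were computed in Python 3.11.15 with numpy 2.4.6, pandas 2.3.3 and matplotlib 3.10.9.

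Sequences, positions and gene types came from GENCODE M21 (GRCm38), which held transcripts of all members. Nearest relatives were found by local alignment of the longest transcript of each gene. Genes were named by rule: the 12 with the highest mean FPKM, the highest of each family, and up to 5 rises and 5 falls per comparison among called genes with non-overlapping groups and a mean of at least 10 FPKM. The members and the marker lists were chosen with earlier results of these data known. Alternatives covered the pseudocount, the filter, the normalization, the weight of a gene, the statistic, a replicate block, the division by Nppa and leaving out each library.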

Additional observations from a re-analysis of the deposited data

How the results depend on the processing

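For the 34 named genes, 2103 of 2176 alternative values kept the direction and the side of the threshold, 53 newly passed it, 20 no longer passed it and 0 reversed. The Ab_IR against L_IR count moved most, from 6 to 12 with a pseudocount of 0.1, to 11 with quantile normalization and to 50 with scaling to the FPKM sum without immunoglobulin genes, which shifted the median log2 fold change of all genes from 0.01 to -0.12. The L_IR against IR count was 26 in place of 12 in a fit of all 12 libraries with the division by Nppa as a term, and 11 of the 12 genes were kept. The last 2 alternatives were chosen after seeing the data. The cause of these moves was not tested. On centred log-ratios 10 families passed in place of 9, with family 5 lost and families 9 and 10 gained.

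Leaving out 1 library at a time gave 7 to 13 families of the 14 (9 with all libraries), 46 to 52 genes of the 57 (52), and 0 to 3 stretches of the locus (2). Families without overlap numbered 7 to 12 between IR and Ctrl (7) and 5 to 9 between Ab_IR and L_IR (5). Genes called numbered 51 to 67 for IR against Ctrl, 27 to 31 for Ab_IR against IR, 11 to 13 for L_IR against IR and 6 to 11 for Ab_IR against L_IR. The exact p was 6.5e-05 to 0.00013 for the Ighv sum and 6.5e-05 to 0.000455 for the effective number of genes.

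For libraries of different groups with the same replicate number, deviations of log2 Ighv gene shares from the group means had correlations between -0.31 and 0.32. These values cover this gene group alone, so they cannot decide whether equal numbers mark samples handled together. With the replicate block, 8 families passed, family 8 being lost, and 1 stretch of the locus passed. Families without a change of sign within numbers were 8 for Ab_IR against L_IR. The genes called with the replicate block numbered 59, 29, 12 and 6 in the order above.

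Depth is unknown, so counting error is not part of any error given, and Ighv genes at low FPKM are the least certain. With 3 libraries a group, single pairs of groups cannot pass an exact test. Genes with near-identical relatives depend on how reads were divided between them.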

Other observations

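The joining segments of the same locus gave a further readout of heavy chain use. Ighj4 had the highest mean share of the summed Ighj1 to Ighj4 FPKM in every group, at 31.3% ± 2.22 (SD, n = 3) in Ctrl and 34.2% ± 2.06 in IR, against 36.7% ± 2.71 in Ab_IR and 36.2% ± 0.246 in L_IR. Ighj2 held 25.8% ± 1.56 in Ctrl and 22.9% ± 0.921 in IR, against 22% ± 2.06 in Ab_IR and 22.9% ± 0.678 in L_IR. The shares of Ighj1 and Ighj3 had group means of 14.6% to 14.9% and 26.4% to 28.2%. These shares were not tested.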
